A study of Mus musculus with 8 samples.

Results

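The carbonic anhydrases described here are 10 mouse genes, Car2, Car3, Car4, Car5b, Car7, Car8, Car9, Car11, Car13 and Car14, taken as the rows of a heart RNA-seq count table whose Entrez numbers carry these symbols. They are 10 of 23282 genes in the table, and all 10 passed the filter on low counts and were tested. The 8 libraries, 4 AE3-null and 4 wild-type (WT), came from hearts of males of the inbred strain FVB/N at an age of 4 months. The null animals lack AE3, the product of Slc4a3, which trades chloride for bicarbonate across the membrane of heart muscle cells. The labels describe neither the null allele nor the heart chambers sampled, and no group carried a further allele or a treatment. The series text gives 4 mice of each genotype, but no label ties a library to its own animal, so the p-values refer to the spread among libraries.

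Carbonic anhydrases are enzymes that interconvert carbon dioxide and water with bicarbonate and a proton. In heart muscle they help carry off the carbon dioxide of respiration, buffer cell pH and supply bicarbonate to membrane transporters, and Car14 has been described as a partner of AE3 at the heart muscle cell surface. Family members differ in place: Car4, Car9 and Car14 face the outside of the cell or the lumen of membrane compartments, Car2, Car3, Car7 and Car13 are cytosolic, and Car5b is mitochondrial. Car8 and Car11 keep the fold but lack the zinc-binding residues that catalysis needs.

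For 6 of the 10 genes RefSeq (build GRCm38.p6) gave sequence before the annotated start, and for Car2, Car3, Car8 and Car13 none was used. The 250 bases before the start are shown for 3 genes: Car14, the most abundant member, Car5b, the member with the smallest p-value, and Car9, which is known as a hypoxia-inducible gene. They lie at chr3:95904686-95904935 on the minus strand for Car14, chrX:164028011-164028260 on the minus strand for Car5b and chr4:43506776-43507025 on the plus strand for Car9. Capitals mark ACGTG (the core letters of a hypoxia response element), CCAAT or GGGCGG on either strand.
Car14: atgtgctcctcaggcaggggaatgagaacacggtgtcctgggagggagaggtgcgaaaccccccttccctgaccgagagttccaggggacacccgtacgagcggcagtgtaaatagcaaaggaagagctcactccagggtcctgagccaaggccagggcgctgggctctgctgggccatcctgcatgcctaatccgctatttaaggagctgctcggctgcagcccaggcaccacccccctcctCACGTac
Car5b: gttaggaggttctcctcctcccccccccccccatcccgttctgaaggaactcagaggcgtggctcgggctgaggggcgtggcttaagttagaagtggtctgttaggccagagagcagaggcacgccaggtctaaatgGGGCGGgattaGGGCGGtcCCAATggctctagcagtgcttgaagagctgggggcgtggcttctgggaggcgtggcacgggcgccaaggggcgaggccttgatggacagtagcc
Car9: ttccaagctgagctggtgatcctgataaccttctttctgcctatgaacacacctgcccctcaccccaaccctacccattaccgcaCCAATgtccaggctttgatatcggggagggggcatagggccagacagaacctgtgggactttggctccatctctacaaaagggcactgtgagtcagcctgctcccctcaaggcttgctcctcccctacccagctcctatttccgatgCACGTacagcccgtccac
ACGTG occurred on the opposite strand, read as CACGT, starting 7 bases before the start of Car14 and 18 bases before that of Car9. Car5b had GGGCGG at 113 and 102 bases and CCAAT at 94 bases before its start, and Car9 had CCAAT at 165 bases. No motif overlapped another. Of 32851 windows of the same length in the table, 16.6% held ACGTG, 33.8% CCAAT and 32.7% GGGCGG on either strand. TATAAA, searched as well, occurred in 12.4% of windows and in none of the 6 members with a window. These matches describe letters and are not evidence of binding.

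Library totals ranged from 9133628 to 27078351 counts in AE3-null and from 14875281 to 19080858 counts in WT hearts. The unit of a level is CPM, a gene's count relative to its library's total after TMM adjustment. Slc4a3 lay between 31.5 and 34.6 CPM in AE3-null hearts, against 378 to 389 CPM in WT hearts, so each library matched its label. All 8 general and ventricular cardiomyocyte markers were detected, with summed levels of 85136 to 91822 CPM in AE3-null and 84885 to 91666 CPM in WT hearts. On the first principal component AE3-null libraries scored -10.9 to -10.2 and WT libraries 1.22 to 19.2, with WT replicate 3 at 1.22. On the second, which carried 16.1% of the variance, WT replicate 3 scored -19.3 and the remaining libraries -1.09 to 8.26.

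None of the 10 carbonic anhydrases passed the test for a genotype difference (edgeR quasi-likelihood test, adjusted p under 0.05). Across all 14136 tested genes 6.47% passed. DESeq2 and limma voom also called none of the 10, against 6.87% and 6.23% of all genes. At an unadjusted p under 0.05 there were 2 of 10 with each of the 3 tools, Car5b and Car14 in edgeR, against 21.0% of all genes in edgeR. In no member were the 4 AE3-null libraries fully separated from the 4 WT libraries, beside 12.2% of all tested genes that were. With 10 members, shares of this size leave 0 an ordinary count, so none of these counts of 0 sets the family apart. The log2 fold change (AE3-null minus WT) was above 0 for 6 members and below 0 for 4, with a median of 0.11 beside -0.0018 over all tested genes, of which 49.5% were above 0.

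**Figure D1:**
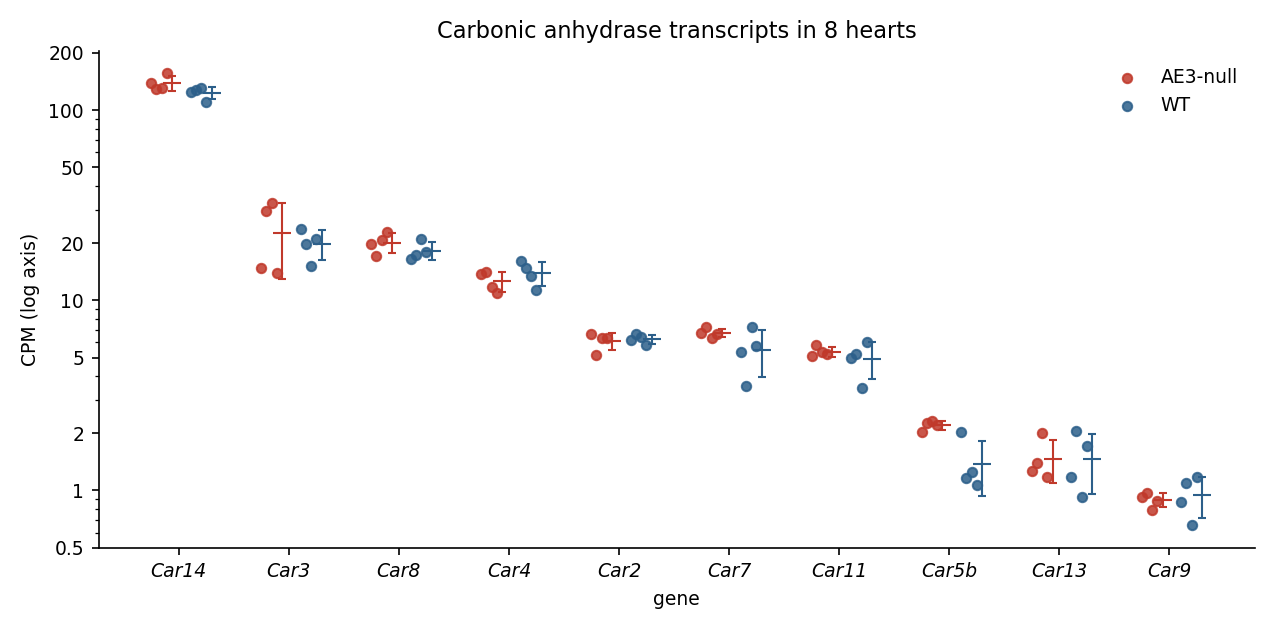
CPM on a log axis for each member, with 1 point per library, AE3-null left of WT, and mean and SD (n = 4) beside the points. Car14 lies above 110 CPM in every library, and the points of the 2 genotypes overlap for every gene.

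Car14 was by far the most abundant transcript of the set. Per kilobase of its longest annotated protein-coding transcript (GENCODE M21) it averaged 81.0 ± 7.35 CPM per kilobase in AE3-null and 72.0 ± 5.20 in WT hearts (SD, n = 4 each). It made up 65.9% of the members' summed level on that scale. Car3 followed at 13.5 ± 5.75 and 11.8 ± 2.13 CPM per kilobase in AE3-null and WT hearts, 6.04-fold below Car14 over all libraries, and Car4 was at 10.02 ± 1.24 and 11.04 ± 1.61. The ranges of Car3 and Car4 over the 8 libraries overlapped, so their order is not settled.

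Car8 came next, at 5.22 ± 0.629 CPM per kilobase in AE3-null and 4.73 ± 0.504 in WT hearts, below every library's value of Car4. Car2, Car11 and Car7 lay close together with overlapping ranges, at means over the 8 libraries of 3.46, 3.24 and 3.15 CPM per kilobase. At the low end Car13, Car5b and Car9 averaged 0.636, 0.521 and 0.455 CPM per kilobase, again with overlapping ranges. With the summed length of all annotated exons in place of the longest transcript, Car11 changed places with Car2, and Car9 with Car5b. On that length Car2, Car11 and Car7 averaged 2.55, 2.67 and 1.68 CPM per kilobase, so Car7 no longer lay close to Car2 and Car11.

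**Figure D2:**
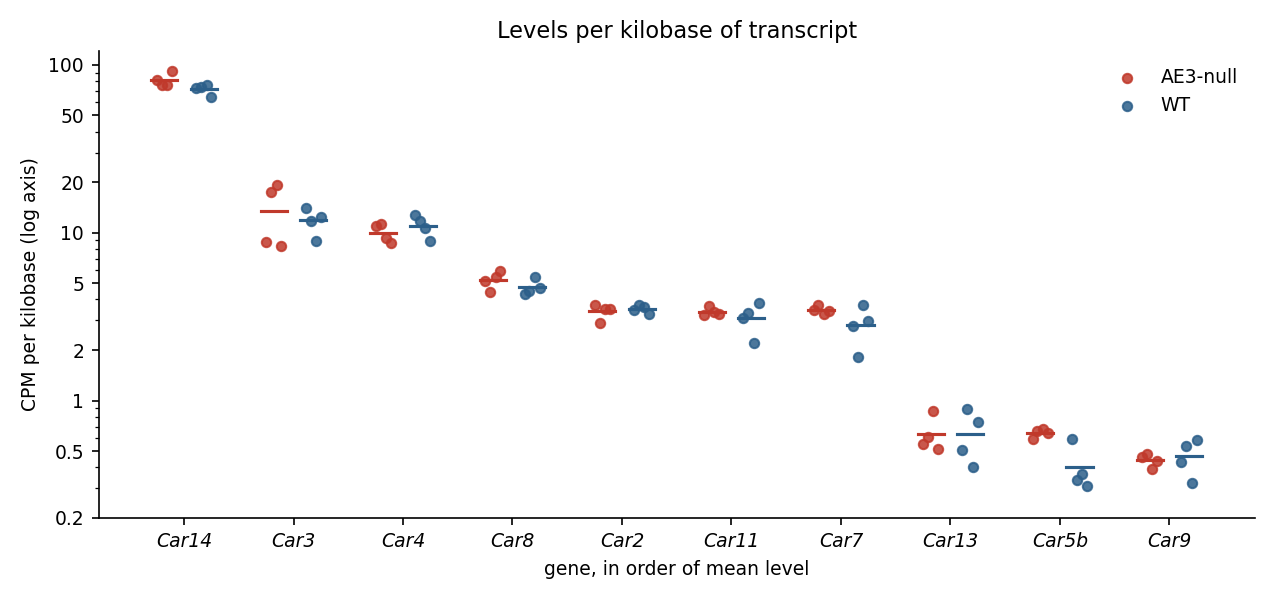
CPM per kilobase of transcript on a log axis for each member in order of its mean, AE3-null left of WT, with 1 point per library and lines at the means. Car14 stands above all others, Car3 and Car4 overlap, and Car13, Car5b and Car9 lie below 1 CPM per kilobase.

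The summed CPM of the 10 genes was 209, 213, 218 and 226 in AE3-null replicates 1 to 4, against 201, 199, 200 and 182 in WT replicates 1 to 4. These sums did not overlap between genotypes, which is also true of 12.2% of single genes, and they are set mainly by Car14. Without Car14 the sums were 70.0 to 88.1 CPM in AE3-null and 69.4 to 76.8 CPM in WT hearts and overlapped. Car14 took 63.9% ± 4.46 of the members' counts in AE3-null and 62.9% ± 2.11 in WT hearts (SD, n = 4 each).

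Among the members that face outward, Car14, a transmembrane enzyme with its catalytic domain outside the cell or in the lumen of the sarcoplasmic reticulum, reached 139, 129, 130 and 156 CPM in AE3-null replicates 1 to 4, against 125, 127, 130 and 110 CPM in WT replicates 1 to 4. AE3-null replicates 2 and 3, at 129.1 and 130.1 CPM, lay just under the highest WT library at 130.4 CPM, so the groups overlapped at 1 edge. Car14 had a log2 fold change of 0.17 with a 95% interval of 0.03 to 0.32, or 1.018-fold to 1.251-fold (edgeR adjusted p 0.162). Intervals here are for each gene alone and are not adjusted for the number of genes tested. The smallest estimate with 1 library left out was 0.11, without AE3-null replicate 4, the library with the highest value.

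Car14 overlaps Aph1a, a gamma-secretase subunit gene on the opposite strand, by 521 bases in GENCODE M21, and the strand setting of the counting is not given. Reads in the shared stretch can therefore not be assigned with certainty. Aph1a was at 141 ± 6.88 CPM in AE3-null and 131 ± 9.33 CPM in WT hearts (SD, n = 4 each), with a log2 fold change of 0.11 (edgeR adjusted p 0.219).

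Car4, anchored to the outer face of the membrane of capillary endothelium and heart muscle cells, was at 13.7, 14.1, 11.7 and 10.9 CPM in AE3-null replicates 1 to 4, against 16.0, 14.8, 13.4 and 11.3 CPM in WT replicates 1 to 4. The groups overlapped over most of their range, and AE3-null replicates 3 and 4 and WT replicate 4 were low. For Car4 the log2 fold change was -0.15 with a 95% interval of -0.39 to 0.08 (edgeR adjusted p 0.475). It was -0.07 without WT replicate 1, -0.08 without AE3-null replicate 4 and -0.24 without WT replicate 4. Endothelial markers were lower in AE3-null hearts: 4 of 10 fell and none rose, beside 3.31% of all genes that fell, and their summed level was 1418 to 1504 CPM against 1630 to 1784 CPM in WT hearts. Pecam1, an endothelial adhesion gene, fell to 190.4 ± 9.87 CPM in AE3-null hearts, against 228 ± 9.01 CPM in WT hearts (SD, n = 4 each). The part of endothelial content in the Car4 values was not tested, and in bulk tissue fewer cells of a type and less RNA per cell cannot be told apart.

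Car9, a transmembrane enzyme known as a target of hypoxia-inducible factor, had the lowest mean CPM of the members in each genotype. Per kilobase its range overlapped those of Car5b and Car13. Car9 had 9 to 24 counts in AE3-null and 10 to 22 counts in WT libraries. It averaged 0.892 ± 0.0770 CPM in AE3-null and 0.947 ± 0.234 CPM in WT hearts (SD, n = 4 each), with a log2 fold change of -0.11 and a 95% interval of -0.65 to 0.43 (edgeR adjusted p 0.858). That interval runs from 0.639-fold to 1.34-fold. Without WT replicate 3 the estimate was -0.24, and without WT replicate 4 it was 0.029. Car9 also overlaps a predicted antisense gene, so its few reads cannot be assigned with certainty.

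Of 13 other genes listed as hypoxia targets, 6 fell and none rose in edgeR, beside 3.31% of all genes that fell and 3.16% that rose. Egln3, a prolyl hydroxylase that marks hypoxia-inducible factor for decay, fell to 126 ± 6.01 CPM in AE3-null hearts, against 242 ± 11.6 CPM in WT hearts (log2 -0.94, edgeR adjusted p 6.87e-10). Its change lies outside the interval of Car9. On the log2 scale Ankrd37 fell by 0.58, the mitophagy receptor gene Bnip3 by 0.50, the collagen prolyl hydroxylase gene P4ha2 by 0.39, the vascular growth factor gene Vegfa by 0.34 and Ndrg1 by 0.20, values that lie inside the interval of Car9. The calls of Ndrg1, Ankrd37 and Bnip3 were lost with 4, 3 and 1 of the 8 single libraries left out. DESeq2 called 8 of the 13 and limma voom 7, beside 6.87% and 6.23% of all genes. Among them was P4ha1, another collagen prolyl hydroxylase gene, at 77.5 ± 5.35 CPM in AE3-null and 130.5 ± 30.8 CPM in WT hearts (edgeR adjusted p 0.0684). The further gene in DESeq2 was Adm, of the vasodilator peptide adrenomedullin, which lay higher in AE3-null hearts, at 14.8 ± 2.40 CPM, against 10.5 ± 1.79 CPM in WT hearts (edgeR adjusted p 0.0571). Earlier results of these data had already shown most of these falls, and the difference between Car9 and these genes was not tested.

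Car5b, the mitochondrial enzyme known for supplying bicarbonate to carboxylases of the mitochondrial matrix, had the largest estimate of the 10 members. It was at 2.02, 2.26, 2.32 and 2.21 CPM in AE3-null replicates 1 to 4, against 2.04, 1.16, 1.25 and 1.07 CPM in WT replicates 1 to 4. WT replicate 1 lay within the AE3-null values, and the other 3 WT libraries lay well below all of them. Its log2 fold change was 0.67 with a 95% interval of 0.22 to 1.11, or 1.17-fold to 2.16-fold, and missed the threshold (edgeR adjusted p 0.0690). DESeq2 and limma voom gave adjusted p-values of 0.121 and 0.0595. Without WT replicate 1 the log2 fold change was 0.92 and passed the threshold (edgeR adjusted p 0.0179). In that fit 658 of 14293 genes passed, against 915 of 14136 with all libraries.

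The counts behind Car5b were low, 21 to 60 in AE3-null and 17 to 33 in WT libraries. At its mean count over the 8 libraries counting error alone gives a coefficient of variation of 17.5%. The AE3-null libraries varied by 5.81%, less than that, and the WT libraries by 32.4%. Car5b is on chromosome X, the only member there.

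Among enzymes that use bicarbonate, 1 of 8 tested fell and none rose in edgeR. Over all genes 3.31% fell and 3.16% rose. The 1 that fell was Pcx, the mitochondrial pyruvate carboxylase. Pcx was at 41.6 ± 2.01 CPM in AE3-null against 49.0 ± 1.97 CPM in WT hearts (SD, n = 4 each, log2 -0.23, edgeR adjusted p 0.0113). DESeq2 called 2 of the 8 and limma voom 1, beside 6.87% and 6.23% of all genes. The second in DESeq2 was the cytosolic acetyl-CoA carboxylase gene Acaca, at 29.1 ± 5.96 CPM in AE3-null and 21.9 ± 1.39 CPM in WT hearts (edgeR adjusted p 0.162, DESeq2 adjusted p 0.0209). The median log2 fold change over these 8 genes was 0.04. None of 11 mitochondrial enzymes or subunits of complexes that release carbon dioxide passed the test in edgeR, DESeq2 or limma voom. In edgeR 2 of the 11 had an unadjusted p under 0.05, against 21.0% of all genes. The nearest were Bckdha, of branched-chain keto acid breakdown, at 261 ± 4.96 CPM in AE3-null and 279 ± 9.46 CPM in WT hearts (edgeR adjusted p 0.126), and the citrate cycle gene Idh3a, at 676 ± 16.6 and 641 ± 18.5 CPM (edgeR adjusted p 0.196).

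Of the cytosolic members, Car3, a slow enzyme abundant in slow skeletal muscle and fat, was at 14.8, 29.5, 32.4 and 13.9 CPM in AE3-null replicates 1 to 4, against 23.7, 19.8, 15.1 and 21.0 CPM in WT replicates 1 to 4. AE3-null replicates 2 and 3 were the highest of all libraries and AE3-null replicates 1 and 4 the lowest. The coefficient of variation was 42.6% in AE3-null and 18.03% in WT hearts, beside 5.24% from counting error at the mean count. The log2 fold change was 0.13 with a 95% interval of -0.72 to 0.98 (edgeR adjusted p 0.887), and it was -0.14 without AE3-null replicate 3 and 0.33 without AE3-null replicate 4.

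The summed level of 7 adipocyte markers was 15.8, 21.0, 27.1 and 13.4 CPM in AE3-null replicates 1 to 4, against 20.4, 21.2, 16.9 and 24.8 CPM in WT replicates 1 to 4. None of these markers was at 0 in all libraries, and none of the 5 tested was called by DESeq2 or limma voom. None of the 5 had an unadjusted p under 0.05 in edgeR, beside 21.0% of all genes. Within AE3-null hearts the libraries high and low in Car3 were also those high and low in the adipocyte sum, and WT replicate 3 was the lowest WT library in each. The other WT libraries did not keep the same order: replicate 1 was highest in Car3 and replicate 4 in the adipocyte sum. Skeletal muscle markers summed to 201 to 227 CPM in AE3-null and 200.01 to 231 CPM in WT hearts. None of 6 tested genes passed the threshold in the 3 tools. At an unadjusted p under 0.05 in edgeR there were 0, beside the same 21.0% of all genes. The part of fat tissue in the Car3 values was not tested.

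**Figure D3:**
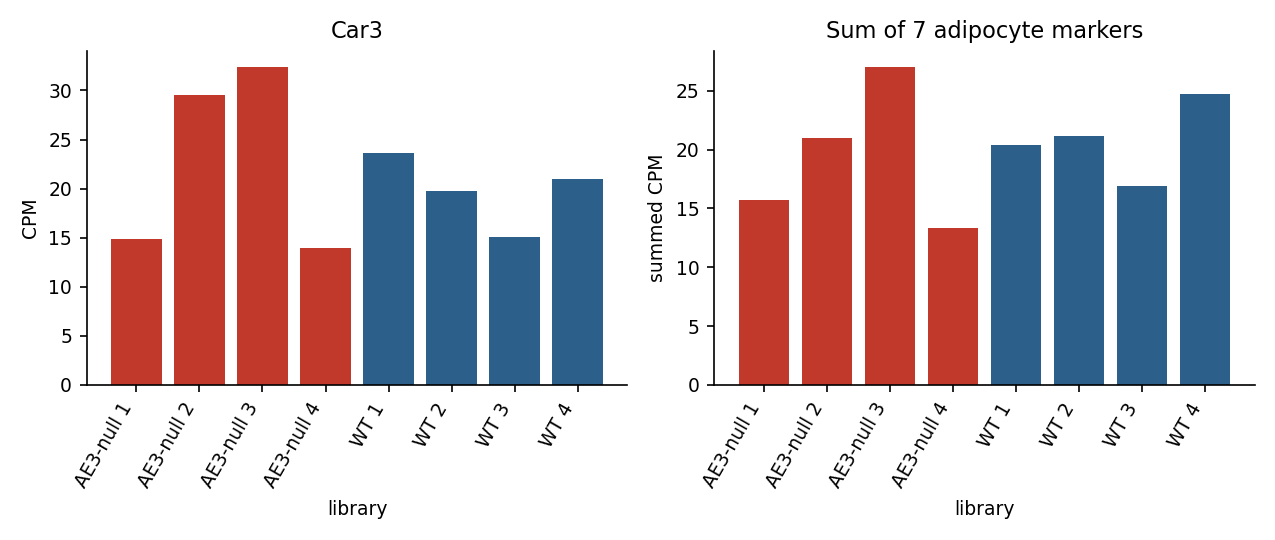
CPM of Car3 (left) and summed CPM of 7 adipocyte markers (right), 1 bar per library, AE3-null libraries left of WT libraries. AE3-null replicates 2 and 3 are higher than AE3-null replicates 1 and 4 in both panels. The WT libraries do not share their order between the panels.

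Car7, a cytosolic enzyme best known from neurons, was at 6.74, 7.22, 6.37 and 6.67 CPM in AE3-null replicates 1 to 4, against 5.38, 3.54, 7.22 and 5.78 CPM in WT replicates 1 to 4. WT replicate 3 lay level with the highest AE3-null library, and the other 3 WT libraries were below all AE3-null libraries. The estimate for Car7 was a log2 fold change of 0.29 with a 95% interval of -0.04 to 0.61 (edgeR adjusted p 0.305). Without WT replicate 3, the library that stood apart, it was 0.44 and passed the threshold (edgeR adjusted p 0.0448). That library is also the WT library that overlapped the AE3-null values of Car7. Without it 1727 of 14309 genes passed, against 915 of 14136 with all libraries. Without WT replicate 2 the Car7 estimate was 0.14. Nerve and Schwann cell markers summed to 17.3 to 19.6 CPM in AE3-null and 12.8 to 15.1 CPM in WT hearts. In edgeR 1 of 4 tested genes rose, beside 3.16% of all genes that rose. This was the noradrenaline-synthesis gene Dbh, at 6.90 ± 0.610 CPM in AE3-null and 3.95 ± 0.590 CPM in WT hearts (SD, n = 4 each). Dbh was also the only tested gene of that list with an unadjusted p under 0.05 in edgeR, though all 4 estimates were above 0. The part of these markers in the Car7 values was not tested.

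Car2, the fast cytosolic enzyme of red blood cells and many other cells, had the log2 fold change nearest to 0 and was at 6.10 ± 0.636 CPM in AE3-null and 6.26 ± 0.338 CPM in WT hearts (SD, n = 4 each). That change was -0.0081 with a 95% interval of -0.23 to 0.21, or 0.855-fold to 1.16-fold (edgeR adjusted p 0.979). Red blood cell markers summed to 3667 to 5073 CPM in AE3-null and 5286 to 8431 CPM in WT hearts, without overlap between genotypes. Among single tested genes 12.2% did not overlap. None of 7 tested markers passed the edgeR test, beside 6.47% of all genes, and none had an estimate above 0. In edgeR 6 had an unadjusted p under 0.05, against 21.0% of all genes. DESeq2 and limma voom each called 6, beside 6.87% and 6.23% of all genes. Rows of the alpha globin pair held the same values and those of the beta globin pair nearly so, so they are fewer measurements than genes. The sums above hold these repeated values more than once. Car1, the other main carbonic anhydrase of red blood cells, had no count in any library.

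Car13, also cytosolic, averaged 1.46 ± 0.371 CPM in AE3-null and 1.46 ± 0.510 CPM in WT hearts (SD, n = 4 each), from 13 to 38 counts in AE3-null and 14 to 32 counts in WT libraries. The log2 fold change was -0.03, and its 95% interval of -0.58 to 0.52 leaves changes of 0.671-fold to 1.44-fold possible (edgeR adjusted p 0.972). The lowest estimate with 1 library left out was -0.22 (AE3-null replicate 3) and the highest 0.16 (WT replicate 2). Car13, Car1, Car3 and Car2 follow each other on chromosome 3 with no other protein-coding gene between them in the RefSeq table. Within this row levels ran from 0 counts for Car1 to 19.9 CPM for Car3 in WT hearts.

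Of the members without catalysis, Car8, which binds the inositol trisphosphate receptor, was the more abundant. It was at 19.8, 17.0, 20.8 and 22.8 CPM in AE3-null replicates 1 to 4, against 16.6, 17.3, 21.0 and 17.97 CPM in WT replicates 1 to 4. AE3-null replicate 2 was low and WT replicate 3 high within their groups, and the groups overlapped. The log2 fold change was 0.17 with a 95% interval of -0.02 to 0.35 (edgeR adjusted p 0.308), and it was 0.24 without WT replicate 3 and 0.09 without AE3-null replicate 4.

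Car11, a related protein without known enzyme activity, was at 5.10 to 5.82 CPM in AE3-null and 3.48 to 6.04 CPM in WT hearts, with the lowest value in WT replicate 3. Its log2 fold change was 0.09 with a 95% interval of -0.20 to 0.39 (edgeR adjusted p 0.767), and it was -0.04 without WT replicate 3 and 0.22 without WT replicate 4. Its next gene on chromosome 7 is Dbp, a transcription factor gene of the circadian clock, which ranged from 68.5 to 153 CPM in AE3-null and from 75.3 to 124 CPM in WT hearts.

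**Figure D4:**
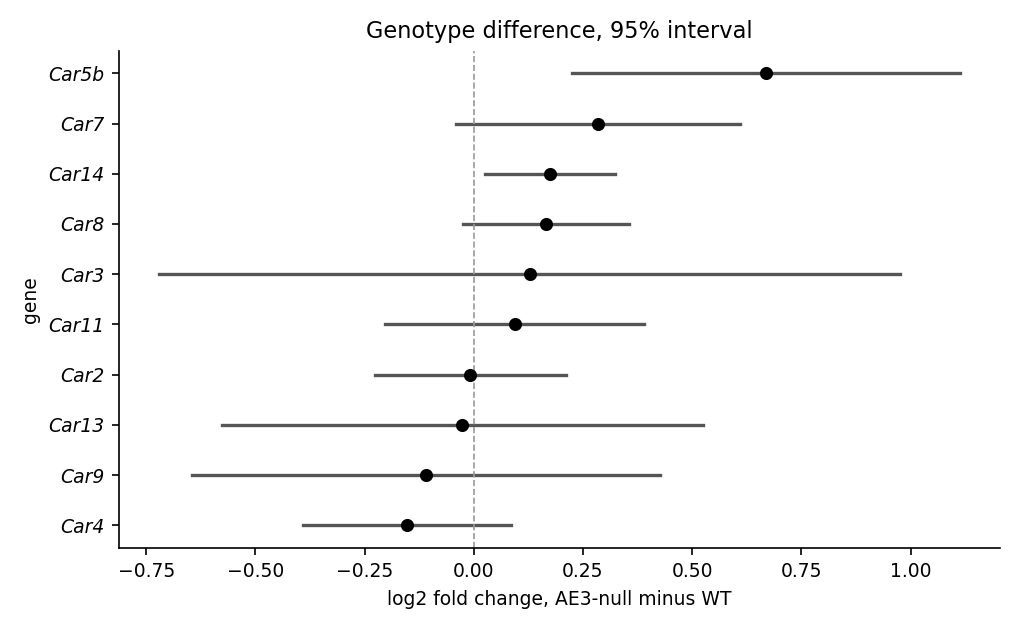
Log2 fold change (AE3-null minus WT) of each member with its 95% interval from the edgeR fit, not adjusted for the number of genes. Only the intervals of Car5b and Car14 exclude 0, and neither gene passed the adjusted threshold.

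The table held 6 more family members, of which Car15 was tested. Car15, a membrane-anchored enzyme, averaged 1.52 ± 0.285 CPM in AE3-null and 1.32 ± 0.335 CPM in WT hearts (SD, n = 4 each, log2 0.17, edgeR adjusted p 0.738). A predicted protein-coding gene on the same strand covers nearly all of Car15, so its count is uncertain. The other 5 did not pass the filter on low counts. Over the 8 libraries Car12 had 8 counts in all, Car10 had 5, the mitochondrial Car5a had 3, the secreted Car6 had 1 and Car1 had 0. A count of 0 among 144171851 allows up to 0.0208 CPM for Car1, a limit that covers counting error only.

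Of 33 bicarbonate and acid transporter genes listed and present, 26 were tested. In edgeR 2 rose and 3 fell, beside 3.16% of all genes that rose and 3.31% that fell. Slc4a3, the gene of the missing AE3, was among those that fell, so its call follows from the genotype. Without AE3-null replicate 2, AE3-null replicate 3 or WT replicate 2 there were 3 calls in place of 5, and without WT replicate 4 there were 2. The median log2 fold change of the 26 genes was -0.01. The sodium-bicarbonate cotransporter gene Slc4a4 fell to 58.3 ± 4.22 CPM in AE3-null hearts, against 72.8 ± 4.56 CPM in WT hearts (SD, n = 4 each, log2 -0.32, edgeR adjusted p 0.00370). Bsg, which encodes the chaperone of monocarboxylate transporters, fell by 0.15 on the log2 scale (edgeR adjusted p 0.0181). The anion exchanger gene Slc26a6 rose by log2 0.35 (edgeR adjusted p 0.0283) and the monocarboxylate transporter gene Slc16a7 by log2 0.39 (edgeR adjusted p 0.0264). Neither rise was called without AE3-null replicate 4 or without WT replicate 4. Slc26a6 also lost its call without AE3-null replicate 3 or WT replicate 2, Slc16a7 without AE3-null replicate 2, and Bsg without AE3-null replicate 2 or 3 or WT replicate 2 or 4.

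Among the remaining marker lists, the atrial genes moved most often. Of 7 atrial markers 6 rose and none fell in edgeR. Over all tested genes 3.16% rose and 3.31% fell, the shares to set beside each edgeR count in this paragraph. Summed atrial levels were 3932 to 4535 CPM in AE3-null and 2969 to 3533 CPM in WT hearts. Myl7, the atrial light chain gene, was at 384 ± 29.1 CPM in AE3-null and 278 ± 14.0 CPM in WT hearts (SD, n = 4 each). Of 9 smooth muscle and pericyte markers 2 rose, Myh11 among them, with sums of 1529 to 1638 CPM in AE3-null and 1431 to 1482 CPM in WT hearts. Fibroblast sums overlapped, at 1541 to 1583 and 1439 to 1613 CPM in AE3-null and WT hearts, and in edgeR 1 of 7 markers, Dpt, fell and none rose. DESeq2 and limma voom each called 2, Dpt and Lum, beside 6.87% and 6.23% of all genes. Lum was at 119 ± 3.48 CPM in AE3-null and 95.8 ± 13.4 CPM in WT hearts (SD, n = 4 each). The Dpt call was lost with total counts, with the replicate block and with any single library left out other than WT replicate 3. Macrophage sums overlapped too, at 245 to 280.2 and 233 to 275 CPM in AE3-null and WT hearts. None of 6 macrophage markers passed the threshold in edgeR. Of these 6, 1 had an unadjusted p under 0.05 in edgeR, against 21.0% of all genes, and DESeq2 called 1. Of the 8 general cardiomyocyte markers 2 rose, among them phospholamban, Pln, by log2 0.14. The part of any of these in the carbonic anhydrase values was not tested.

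Outside the family, the 3 genes most like Car14 over the 8 libraries were Bcl7c, Anapc5 and Tln2. Likeness was the root mean square difference of log2 CPM, each gene scaled to a mean of 0 and an SD of 1, over 10605 genes that averaged 5 CPM or more, and it was 0.182, 0.263 and 0.288 for these genes. The 3 most like Car5b were Tprkb at 0.226, Lars at 0.247 and Retnla at 0.264. Retnla, a secreted protein gene of macrophages and fat, reached 12.4 to 14.8 CPM in AE3-null and 6.37 to 11.6 CPM in WT hearts. It rose by log2 0.75 (edgeR adjusted p 0.0157, and 0.0577 without AE3-null replicate 4). Its highest WT value, like that of Car5b, was in replicate 1. These genes were picked for likeness over the same 8 libraries, so shared features follow from the choice and are no separate result.

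**Figure D5:**
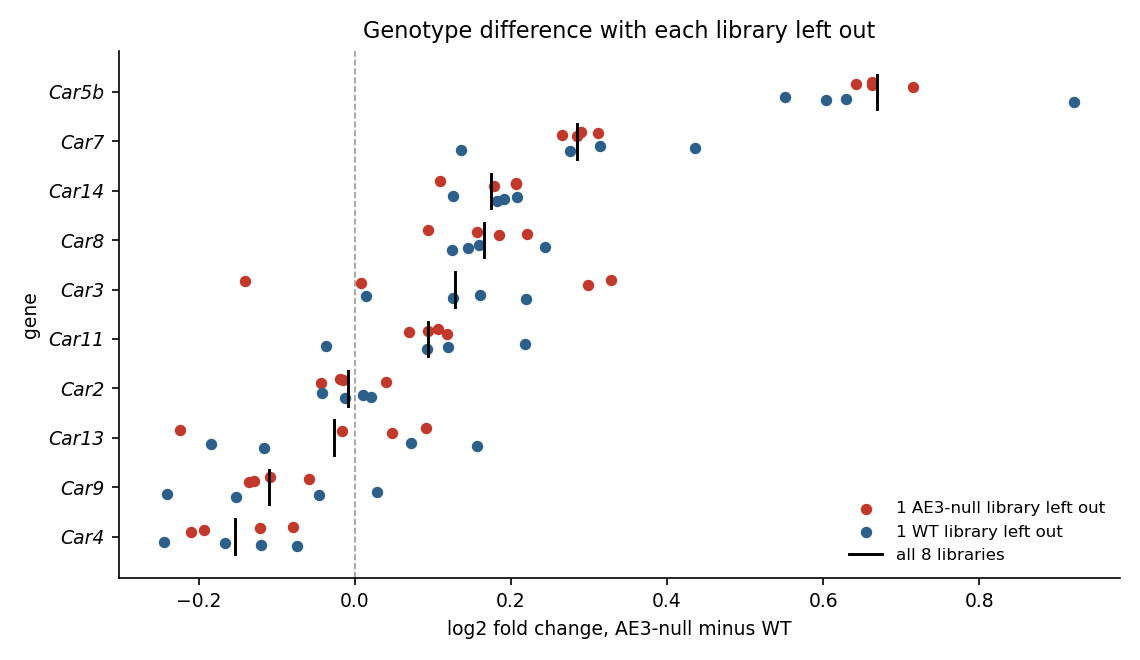
Log2 fold change (AE3-null minus WT) of each member with all 8 libraries (vertical lines) and with each library left out (points, 1 AE3-null library left out above and 1 WT library left out below). Car5b moves to 0.92 without WT replicate 1, Car7 to 0.44 without WT replicate 3, and the points of Car2, Car3, Car9, Car11 and Car13 fall on both sides of 0.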

How the data were processed

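Heart RNA-seq libraries of 4 AE3-null and 4 WT mice were compared. The authors deposited raw read counts per gene, 1 column per library and not normalized. The submitters' processing notes name bcl2fastq, CASAVA 1.8, TopHat, DESeq and build mm9. How reads were counted, with which strand setting and annotation, is not given in the sources used here. Of 23282 Entrez numbers 23185 matched a symbol in the RefSeq table of GRCm38.p6. That table gave only names, gene order and upstream sequences, and lengths came from GENCODE M21.

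Genes were filtered with filterByExpr (minimum count 10), scaled by TMM and compared in edgeR by the quasi-likelihood test, robust and without covariates, two-sided, with Benjamini-Hochberg adjustment over all 14136 tested genes. Standard errors and 95% intervals follow from the F statistic of each fold change. The steps were tested on simulated counts. Versions were 1.42.0 for DESeq2, 3.58.1 for limma, 4.0.16 for edgeR and 4.3.3 for R. No library was a copy of another (chi-square of 2.51 to 7.40 per gene between libraries of the same genotype). Alternatives were other scalings, filters and tools, a looser threshold, a replicate block and each library left out.

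The members and all lists were chosen with earlier results of these data known. All 10 members were named, with every other tested family gene, up to 6 genes past the threshold per pathway list (or the 2 with the smallest p), at most 2 per marker list and 3 genes most like the most abundant member and the member with the smallest p. Aph1a, Dbp, Lum, Acaca, P4ha1 and Adm were named after their values were seen.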

Additional observations from a re-analysis of the deposited data

Results flagged for a closer look

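In AE3-null hearts P4ha2, the collagen prolyl hydroxylase gene, was at 73.1 CPM in replicate 2, apart from the other 3 AE3-null libraries at 69.6 to 69.8 CPM. Ankrd37 was at 4.97 CPM in AE3-null replicate 1, apart from the other AE3-null libraries at 3.28 to 3.55 CPM. These are 2 of 74 groups of 4 libraries checked, and chance flags about 1 in 20. No carbonic anhydrase was flagged in any of its 20 groups.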

How the results depend on the processing

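No member was called under RLE or total-count scaling, without a filter, with a minimum count of 50 (which left 7 members tested), by DESeq2, by limma voom or without robust moderation. At an adjusted p under 0.1, 1 member was called, Car5b, and 1546 genes in all. With single libraries left out 0 to 1 members were called, 407 to 1727 of all genes and 2 to 6 of the bicarbonate and acid transporters, against 5 with all libraries. The member was Car5b without WT replicate 1 and Car7 without WT replicate 3. All genes called were 581, 569, 407, 1727 and 431 without AE3-null replicates 1, 3 and 4 and WT replicates 3 and 4, against 915. Transporter calls were 3, 3, 3 and 2 without AE3-null replicates 2 and 3 and WT replicates 2 and 4. Scaling by total counts gave 528 genes higher and 361 lower, against 447 and 468.

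Directions of small estimates turned. Car2 was 0.0099 with total counts and 0.0024 with limma voom, and -0.044 to 0.039 with single libraries left out. Car3 was -0.024 with limma voom and -0.14 to 0.33 with single libraries left out. Car9, Car11 and Car13 ranged from -0.24 to 0.029, -0.037 to 0.22 and -0.22 to 0.16 with single libraries left out. The cause was not tested. Car4, Car5b, Car7, Car8 and Car14 kept their direction in all 16 alternatives run for them, or 15 for Car5b. Same-numbered libraries of the genotypes did not pair throughout. Their deviations from the group means correlated over genes at 0.19, -0.02, 0.04 and 0.0067 for replicates 1 to 4. The value for replicate 1 was the highest of all pairs, but not every library correlated best with its own number. With the replicate block 1002 genes, 0 members and 5 transporters were called, Car5b had a log2 fold change of 0.67 (edgeR adjusted p 0.0880) and Car13 turned to 0.016. Depth limits Car5b, Car9 and Car13 most, with counts of 60 or fewer in each library.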
